A study of Homo sapiens with 8 samples.

Results

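The zinc finger genes of human chromosome 19 are the genes whose array symbol is ZNF followed by a number and at most 1 letter and whose gene record lies on chromosome 19. The choice used only names and gene positions, and no measured value. It gave 226 genes, which is 48.0% of the 471 genes with such a symbol on any chromosome, and 225 of the 226 are protein coding (the exception is the pseudogene ZNF542P). Of the 226, 205 were bright enough to be tested, that is, the log2 value of the gene exceeded 4 in both replicates of some group, and 21 were too dim.

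The RNA came from 2 human liver lines in culture, each of them a single line: HepG2, from a hepatocellular carcinoma, and LX2, hepatic stellate cells, the cell type that lays down scar tissue in a fibrotic liver. Both received either 400 nM CM272 or the vehicle, 0.1% DMSO, for 48 h. The control samples are described as treated with DMSO in the protocol and sample descriptions, while a further label gives their treatment as none. CM272 inhibits the histone H3 lysine 9 methyltransferase G9a (gene EHMT2) and the DNA methyltransferase DNMT1. The medium held 2% fetal bovine serum for LX2 and 10% for HepG2, so that line and serum cannot be told apart. Control and CM272 cells of the 2 lines make 4 groups of 2 samples, each on its own array, 8 arrays in all. The labels do not state whether replicates were separate cultures, so a p-value here reflects sample-to-sample spread that may be technical.

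Most of these genes encode KRAB zinc finger proteins. Their fingers bind DNA, in many cases within transposable elements, and the KRAB domain recruits TRIM28, which brings the H3K9 methyltransferase SETDB1 and the heterochromatin protein 1 family (genes CBX1, CBX3 and CBX5). The genes lie in clusters made by repeated duplication, the clusters themselves carry H3K9 trimethylation over the gene bodies, and the promoters of several members are known to be methylated in tumours. Because neighbouring members are similar in sequence, a probe set of 1 member may also pick up RNA of another, and this was not tested. None of the 226 had all its values identical to those of another probe set.

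Of the members described first, 3 that fell in LX2 lie in the same run of genes on the short arm (ZNF493, ZNF431 and ZNF254), 1 that fell lies elsewhere (ZNF567), and 2 rose in LX2 (ZNF878 and ZNF556). The 250 bases before the start of each are shown to set the promoters of one run beside those of other members. They come from the RefSeq promoter table (GRCh38.p14, coding strand of the gene, 5′ to 3′), and capitals mark each CCAATCA, the CCAAT box with 2 more letters. The positions are chr19:21396883-21397132 (+) for ZNF493, chr19:21141790-21142039 (+) for ZNF431, chr19:24086937-24087186 (+) for ZNF254, chr19:36666684-36666933 (+) for ZNF567, chr19:12052962-12053211 (-) for ZNF878 and chr19:2867085-2867334 (+) for ZNF556.
ZNF493: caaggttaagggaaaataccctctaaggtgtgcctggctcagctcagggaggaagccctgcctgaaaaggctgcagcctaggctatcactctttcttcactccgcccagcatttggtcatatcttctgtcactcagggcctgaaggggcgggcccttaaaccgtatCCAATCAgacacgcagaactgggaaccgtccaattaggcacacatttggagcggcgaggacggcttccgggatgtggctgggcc
ZNF431: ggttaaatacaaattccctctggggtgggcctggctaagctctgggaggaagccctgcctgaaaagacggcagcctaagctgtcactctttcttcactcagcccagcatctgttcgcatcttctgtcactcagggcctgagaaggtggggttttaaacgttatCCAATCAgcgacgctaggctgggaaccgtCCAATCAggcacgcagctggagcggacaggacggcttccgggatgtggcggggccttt
ZNF254: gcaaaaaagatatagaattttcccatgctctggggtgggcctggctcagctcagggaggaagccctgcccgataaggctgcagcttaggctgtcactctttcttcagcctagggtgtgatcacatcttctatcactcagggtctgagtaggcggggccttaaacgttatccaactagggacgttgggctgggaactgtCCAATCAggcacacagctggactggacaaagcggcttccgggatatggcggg
ZNF567: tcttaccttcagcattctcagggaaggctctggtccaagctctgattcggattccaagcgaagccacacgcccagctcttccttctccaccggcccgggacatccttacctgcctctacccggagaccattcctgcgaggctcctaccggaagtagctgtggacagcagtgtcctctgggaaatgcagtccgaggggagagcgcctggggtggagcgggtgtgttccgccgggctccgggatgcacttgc
ZNF878: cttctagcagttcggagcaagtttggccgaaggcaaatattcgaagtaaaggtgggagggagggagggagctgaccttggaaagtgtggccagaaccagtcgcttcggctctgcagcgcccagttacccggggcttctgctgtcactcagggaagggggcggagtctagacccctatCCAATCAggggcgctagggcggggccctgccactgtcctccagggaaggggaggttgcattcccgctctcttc
ZNF556: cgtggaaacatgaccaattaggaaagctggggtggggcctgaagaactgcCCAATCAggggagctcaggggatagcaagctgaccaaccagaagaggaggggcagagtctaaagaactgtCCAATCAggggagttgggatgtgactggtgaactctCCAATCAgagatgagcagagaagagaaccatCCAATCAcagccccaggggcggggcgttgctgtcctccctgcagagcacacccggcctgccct

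Each of the first 3 sequences holds the capital motif at 1 or 2 places. The sequence of ZNF567 has no match, ZNF878 has 1 and ZNF556 has 4. The counts over whole promoters are given further on, with the run to which the first 3 belong.

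In LX2, CM272 lowered 9 and raised 5 of the 205 tested members (limma, Benjamini-Hochberg adjusted p under 0.05 over 12239 genes). ZNF493, ZNF527 and ZNF567 fell by more than 1 on the log2 scale (2-fold), and ZNF878 was the only riser past a 2-fold change. The lower calls are 4.39% of the members beside 4.63% of all tested genes, and the higher calls are 2.44% beside 3.79%. In either direction 6.83% of members and 8.42% of all tested genes were called, so the share of members called was not above the background. Without adjustment, 45 members (22.0%) were lower and 12 (5.85%) higher at p under 0.05, beside 14.8% and 10.5% of all tested genes. In RNA of a whole culture of 1 line, a change in some cells and a change in all of them cannot be told apart.

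**Figure D1:**
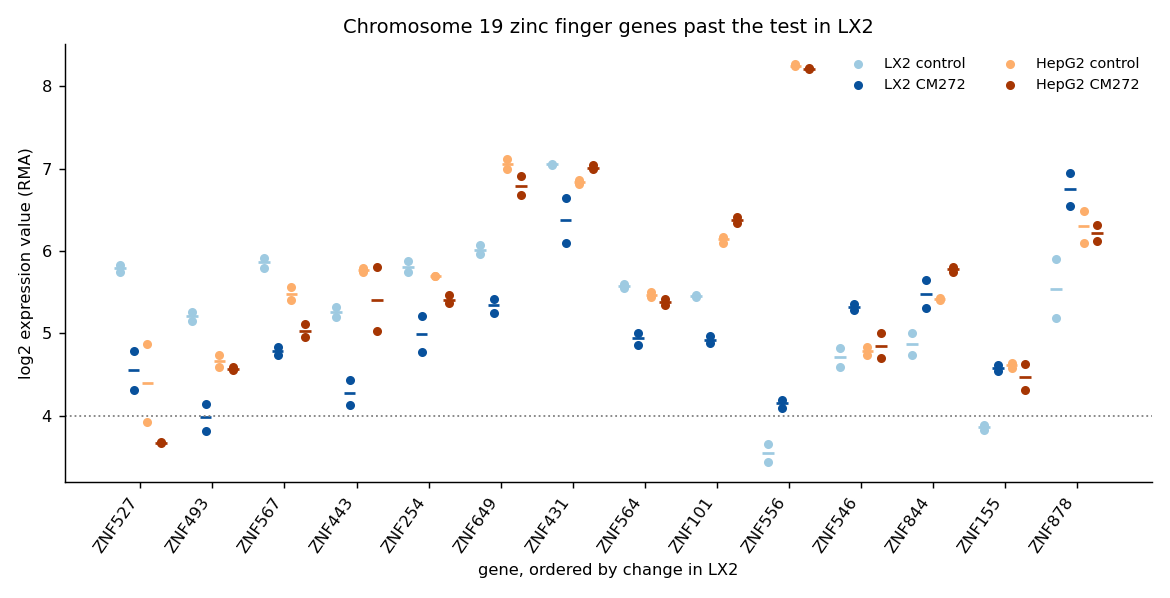
Deposited log2 values (y axis) of the 14 members past the test in LX2 (x axis, ordered by their change in LX2), with 1 point per array and 2 arrays in each of the 4 groups; short bars are group means and the dotted line marks a log2 value of 4. In 9 genes both LX2 CM272 points lie below both LX2 control points and in 5 both lie above, while the HepG2 points of ZNF556 all lie between 8.21 and 8.27. Over all tested genes in LX2, both lie below in 28.6% and both above in 23.5%. The 14 members were picked by the test on these arrays, so their order is no further support.

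ZNF493 had the smallest adjusted p among the genes that fell. Its log2 values were 5.15 and 5.26 in the LX2 controls and 3.82 and 4.14 with CM272, against 4.74 and 4.59 in the HepG2 controls and 4.55 and 4.59 with CM272. Both treated LX2 arrays were the lowest of the 8, and in HepG2 the treated value 4.59 equalled a control value at 2 decimals. The change in LX2 was -1.23 (SE 0.15, 95% interval -1.57 to -0.88, adjusted p = 0.0037), from 5.21 ± 0.08 to 3.98 ± 0.22 (SD, n = 2), and in HepG2 it was -0.10 (SE 0.15, adjusted p = 0.866). With values under 4 raised to 4, the LX2 change was -1.14.

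ZNF527 showed the largest fall in LX2. Its values were 5.75 and 5.83 in the LX2 controls and 4.31 and 4.78 with CM272, a change of -1.24 (SE 0.27, adjusted p = 0.0276). In HepG2 the controls were 4.87 and 3.93 and the treated arrays 3.68 and 3.67. Both lines were lower with CM272 on every array, but the HepG2 controls had an SD of 0.67 (n = 2), and the HepG2 change of -0.73 was not past the test (adjusted p = 0.364). Both treated HepG2 arrays and the control at 3.93 lay under a log2 value of 4, so part of that change lies in the dim range.

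ZNF567 lies in the same run of genes as ZNF527. It went from 5.79 and 5.92 in the LX2 controls to 4.74 and 4.83 with CM272, and from 5.56 and 5.40 to 5.11 and 4.95 in HepG2. In neither line did treated and control arrays overlap. Both treated arrays lay below both controls for 28.6% of all tested genes in LX2 and 28.2% in HepG2. ZNF567 was picked by the test on the LX2 arrays, so their order is no further support. The change in LX2 was -1.07 (SE 0.14, adjusted p = 0.00484) and in HepG2 it was -0.45 (SE 0.14, adjusted p = 0.310).

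ZNF443 fell from 5.32 and 5.20 to 4.13 and 4.43 in LX2 (change -0.98, SE 0.23, adjusted p = 0.0334). ZNF254 fell there from 5.75 and 5.88 to 4.77 and 5.21 (change -0.82, SE 0.17, adjusted p = 0.0210). ZNF649 fell from 6.07 and 5.96 to 5.25 and 5.42 (change -0.68, SE 0.15, adjusted p = 0.0266). In HepG2 these genes had changes of -0.36, -0.28 and -0.26, none past the test. ZNF431 fell in LX2 from 7.05 and 7.04 to 6.10 and 6.64 (change -0.68, SE 0.18, adjusted p = 0.0463). ZNF564 fell from 5.60 and 5.55 to 5.01 and 4.86 (change -0.64, SE 0.13, adjusted p = 0.0230). ZNF101 fell from 5.46 and 5.44 to 4.97 and 4.88 (change -0.52, SE 0.13, adjusted p = 0.0399). Both LX2 arrays with CM272 lay below both controls for each of the genes in this paragraph, an order found for 28.6% of all tested genes. The genes were picked by the test on these same arrays, so this order is no further support. In HepG2 the changes of ZNF431, ZNF564 and ZNF101 were 0.18, -0.09 and 0.24.

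Of the 5 members that rose in LX2, ZNF878 rose most. Its values were 5.19 and 5.90 in the controls and 6.94 and 6.55 with CM272 (change 1.20, SE 0.25, adjusted p = 0.0222), beside 6.49 and 6.10 in the HepG2 controls and 6.12 and 6.32 with CM272. The LX2 controls of this gene had an SD of 0.50 (n = 2), and its treated LX2 arrays were above every HepG2 array. ZNF155 rose from 3.83 and 3.89 to 4.62 and 4.54 (change 0.72, SE 0.15, adjusted p = 0.0228). ZNF556 rose from 3.44 and 3.66 to 4.10 and 4.19 (change 0.59, SE 0.14, adjusted p = 0.0321). Both started under the log2 value of 4 and crossed it; with values under 4 raised to 4 the changes were at least 0.58 and 0.15. ZNF844 rose from 5.0 and 4.74 to 5.31 and 5.65 (change 0.61, SE 0.16, adjusted p = 0.0487), and ZNF546 from 4.82 and 4.59 to 5.28 and 5.36 (change 0.61, SE 0.16, adjusted p = 0.0444). ZNF844 lies next to ZNF878 in the gene order of the members. In HepG2 the 5 genes had changes of -0.08, -0.14, -0.04, 0.36 and 0.06 in the order named, none past the test, and those of ZNF878, ZNF155 and ZNF546 changed sign on leaving out 1 array.

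The LX2 calls depended on single arrays. The number of members called moved with the array left out, and so did the number called over all tested genes. Both numbers fell most without an LX2 control. Both rose without LX2 CM272 replicate 2. Leaving out a HepG2 array also moved both, since the 4 groups share 1 estimate of the spread. ZNF493 and ZNF567 stayed past the test in 7 of the 8 removals and failed it without LX2 control replicate 2, while ZNF546 stayed in 0 of the 8, ZNF431 and ZNF844 in 1, ZNF101 and ZNF556 in 2 and ZNF443 and ZNF649 in 3.

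The LX2 arrays with CM272 were the least alike. The median absolute difference between the 2 arrays of a group, over the tested members, was 0.31 for LX2 CM272, 0.17 for LX2 control, 0.21 for HepG2 CM272 and 0.15 for HepG2 control. Over all tested genes it was 0.26, 0.12, 0.15 and 0.14 in the same order. The larger spread in LX2 CM272 was thus also seen over all tested genes. A fit that weights the groups by their spread kept 3 of the lower calls and 0 of the higher, and a fit of each line alone kept 4 and 0. Over all tested genes the calls fell too. They were 1.18% lower and 1.14% higher with the weights, and 0.539% and 1.08% with each line alone.

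Beyond the calls, the members as a whole lay slightly below 0 in LX2. The median change of the 205 tested members was -0.13 (quartiles -0.36 and 0.12, range -1.24 to 1.20), against -0.02 for all tested genes, and 128 members (62.4%) were below 0 against 52.5% of all tested genes. The 225 tested ZNF genes of other chromosomes had a median of -0.11, with 60.9% below 0, 13 called lower (5.78%) and 11 higher (4.89%). The other 739 tested genes of chromosome 19 had a median of 0.09, with 36.9% below 0, 4 called lower (0.541%) and 38 higher (5.14%). Over all tested genes 4.63% were called lower and 3.79% higher. So the members lay closer to ZNF genes elsewhere than to their neighbours on chromosome 19, as a description with no test. With each array centred on its median the member median was -0.20 and that of all genes -0.09. Without LX2 CM272 replicate 1 the medians lay closer, at -0.08 and -0.04, and without LX2 CM272 replicate 2 they were -0.16 and 0.01. Without LX2 control replicate 1 they were -0.14 and -0.02, and without LX2 control replicate 2 -0.11 and -0.03.

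**Figure D2:**
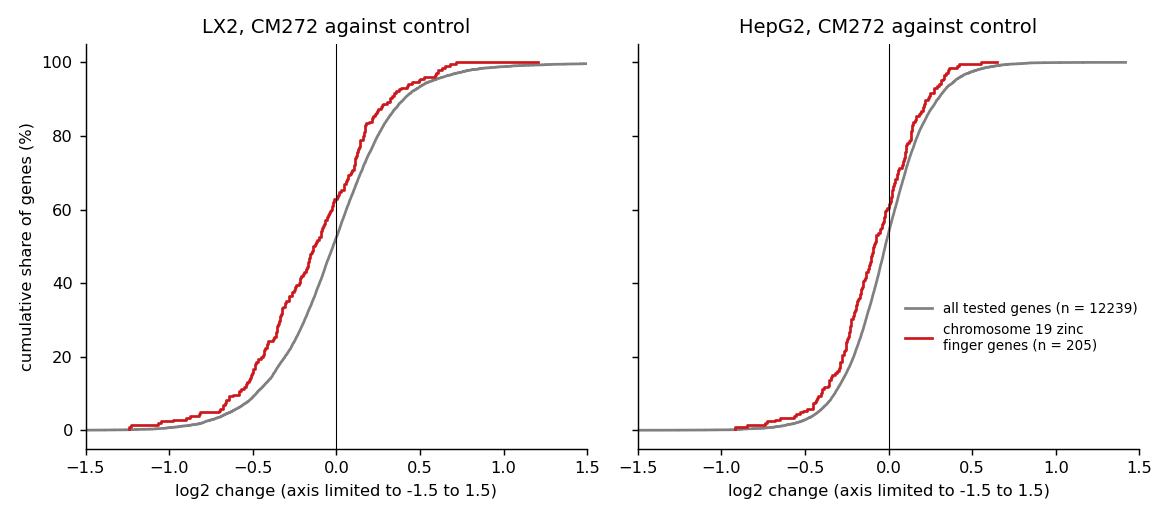
Cumulative share of genes (y axis, percent) against the log2 change with CM272 (x axis, limited to -1.5 to 1.5) for the 205 tested members (red) and all 12239 tested genes (grey), in LX2 (left) and HepG2 (right). The red curve crosses 0 at 62.4% in LX2 and at 60.0% in HepG2, above the grey curve in both panels.

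In HepG2, CM272 called 0 members in either direction (limma, adjusted p under 0.05), with 17 lower (8.29%) and 3 higher (1.46%) at an unadjusted p under 0.05, beside 6.70% and 4.76% of all tested genes. The background was as low: 0.0% of the tested genes were called higher and 0.00817% (1 gene) lower. The largest HepG2 changes were not past the test. ZNF708 had values of 3.96 and 5.12 in the controls and 3.63 and 3.62 with CM272 (change -0.92, SE 0.37, adjusted p = 0.389). ZNF430 had 4.21 and 4.29 against 3.01 and 3.80 (change -0.85, SE 0.32, adjusted p = 0.365). ZNF383 had 6.14 and 6.02 against 5.04 and 5.64 (change -0.74, SE 0.20, adjusted p = 0.245). Treated and control arrays did not overlap for these genes, but ZNF708 had 1 control close to the treated arrays. For ZNF708 and ZNF430 both treated arrays lay under a log2 value of 4, so part of these falls lies in the dim range. Over all tested genes, both treated HepG2 arrays lay below both controls in 28.2%. On the upper side ZNF610 had 4.45 and 4.01 against 4.89 and 4.86 (change 0.65, SE 0.19, adjusted p = 0.284), ZNF223 a change of 0.55 (adjusted p = 0.330) and ZNF587 a change of 0.42 (adjusted p = 0.524).

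The HepG2 median over the tested members was -0.09 (range -0.92 to 0.65), with 123 members (60.0%) below 0, beside a median of -0.02 and 53.6% for all tested genes. Leaving out 1 array moved the member median between -0.11 and -0.04, the latter without HepG2 CM272 replicate 1. In that fit the median of all tested genes was -0.01, so the members lay close to it. Other ZNF genes had a median of -0.05. The LX2 and HepG2 comparisons share no array. Across the 205 members the changes in the 2 lines correlated with r = 0.24 (Spearman 0.20), against 0.09 (Spearman 0.11) over all tested genes, given as a description over genes that are not independent replicates. In both lines 80 members were below 0 and 34 above, and 90 went opposite ways. Of the 9 genes that fell in LX2, 7 were also below 0 in HepG2, where their median was -0.26 (range -0.73 to 0.24) beside -0.82 in LX2. Of the 5 that rose in LX2, 2 were above 0 in HepG2.

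**Figure D3:**
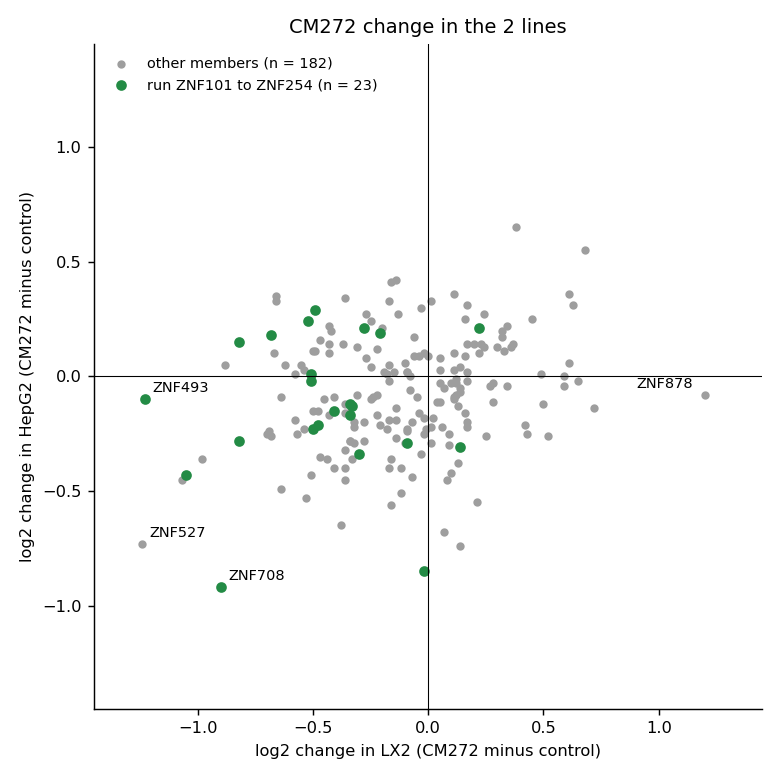
Log2 change with CM272 in LX2 (x axis) against that in HepG2 (y axis), 1 point per tested member (n = 205); green points are the 23 tested members of the run from ZNF101 to ZNF254, grey points the others. Green points lie mainly left of 0, 21 of 23 on the LX2 axis and 15 of 23 below 0 on the HepG2 axis.

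Whether CM272 acted differently on a member in the 2 lines was tested directly, as the HepG2 change minus the LX2 change. ZNF493 was the 1 member past the test: its difference was 1.13 (SE 0.22, 95% interval 0.64 to 1.61, adjusted p = 0.0439), since it fell in LX2 and hardly moved in HepG2. That is 0.488% of members called, against 0.36% of tested genes higher, 0.825% lower and 1.18% in either direction. The call held in 2 of the 8 single-array removals (without either LX2 CM272 array, with differences of 0.97 and 1.29) and failed in the other 6. Without adjustment 18 members were higher (8.78%) and 10 lower (4.88%), beside 8.85% and 8.74% of all tested genes. ZNF878 had a larger difference in size, -1.28 (SE 0.35), that was not past the test (adjusted p = 0.105). The differences of ZNF383 (-0.88), ZNF155 (-0.86), ZNF615 (1.01) and ZNF563 (0.99) were smaller in size than that of ZNF493. They were not past the test either, with adjusted p of 0.15, 0.0848, 0.0966 and 0.271. ZNF563 was under a log2 value of 4 on every LX2 array. For the other 13 genes called in LX2, a difference between the lines was therefore not shown.

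Along the chromosome, the members were placed in runs by the order of gene records, with a new run wherever more than 20 genes that are not members lie between neighbouring members. This gave 18 runs, of which 9 had at least 5 members and together held 213 of the 226. The run from ZNF101 to ZNF254 stood lowest in LX2 among these 9. It was singled out after its values were seen, so it is described without a test. Of its 31 members 23 were tested. Their median LX2 change was -0.48 (range -1.23 to 0.22), 21 of 23 were below 0, and 4 were called lower (ZNF101, ZNF431, ZNF493 and ZNF254) and 0 higher. Over all tested genes 52.5% were below 0 in LX2, 4.63% were called lower and 3.79% higher. The 2 members of the run above 0 were ZNF98 (0.22) and ZNF14 (0.14, from -0.19 to 0.47 without 1 array). In HepG2 0 of the 23 were called, beside 0.00817% of all tested genes. The run median there was -0.13 and 15 of 23 were below 0, beside 53.6%. Without HepG2 CM272 replicate 1 that median was -0.08 with 12 of 23 below 0, and at a filter of log2 6 it was -0.01 with 4 of 8 below 0.

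The size of that shift rested partly on 1 array. Over the 23 tested genes the array medians were 5.57 and 5.53 in LX2 controls, 4.84 and 5.21 in LX2 CM272, 5.44 and 5.07 in HepG2 controls and 5.08 and 5.11 in HepG2 CM272. LX2 CM272 replicate 1 was the lower of its pair in 21 of 23 genes, with a median difference of -0.32. Without it the LX2 median was -0.32 with 20 of 23 below 0, beside a median of -0.04 for all tested genes. Without LX2 CM272 replicate 2 the median was -0.60, beside 0.01. Without the LX2 controls in turn the median was -0.52 and -0.45, beside -0.02 and -0.03. Both treated arrays of LX2 thus lay below both controls in their run medians.

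**Figure D4:**
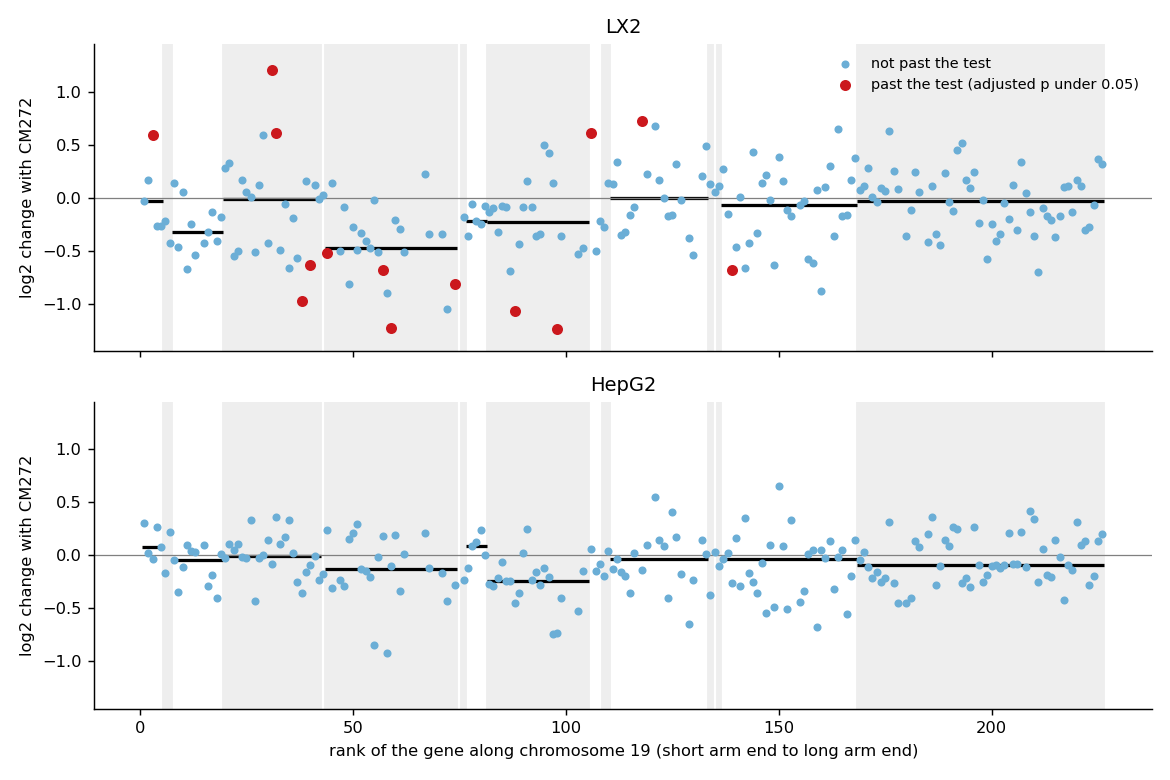
Log2 change with CM272 (y axis) of each tested member against its rank along chromosome 19 (x axis, short arm to long arm) in LX2 (top) and HepG2 (bottom). Grey bands alternate between runs of neighbouring genes, black bars are run medians for runs of at least 5 members and red points are genes past the test, of which LX2 has 14 and HepG2 0; the run from ZNF101 to ZNF254 has a bar at -0.48 in LX2 and at -0.13 in HepG2.

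The run from ZNF565 to ZNF573, which holds ZNF527 and ZNF567, had medians below 0 in both lines. Of its 24 members 20 were tested, with a median of -0.23 in LX2 (16 below 0, 2 called lower) and -0.24 in HepG2 (18 below 0, 0 called). Over all tested genes 52.5% were below 0 and 4.63% were called lower in LX2. In HepG2 53.6% of all tested genes were below 0. Leaving out single arrays moved the LX2 median of this run between -0.33 and -0.21 and its HepG2 median between -0.30 and -0.20. With no filter the medians were -0.10 in LX2 and -0.23 in HepG2, and at a filter of log2 6, which left 6 genes, -0.10 and -0.22, where the LX2 median of all genes was -0.09. This run too was singled out after its values were seen. The run from ZNF653 to ZNF791 held calls both ways in LX2: ZNF443 and ZNF564 fell, ZNF878 and ZNF844 rose, and its median was -0.01. The largest run, ZNF628 to ZNF446 near the end of the long arm, had 56 tested members, 0 calls with CM272 and medians of -0.03 in LX2 and -0.09 in HepG2. The run ZNF175 to ZNF331 had 31 tested members, a median of -0.07 in LX2 and 1 call, ZNF649. Medians below 0 in LX2 were also found for ZNF414 to ZNF846 (-0.32, 9 of 11 below 0) and ZNF302 to ZNF792 (-0.22, 5 of 5). Neither held a call with CM272, and their HepG2 medians were -0.05 and 0.09. The runs ZNF554 to ZNF77 and ZNF575 to ZNF180 had LX2 medians of -0.03 and 0.0.

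Promoter windows of 300 bases, 250 before to 50 after the gene start, were found in the RefSeq table for 198 of the 226 members. CG dinucleotides, at which DNMT1 maintains methylation, numbered 20 per window as the median of members (range 2 to 40), against 14 over all 27305 windows, 23 over the 10749 windows of genes with a symbol on the array and 24 for ZNF genes elsewhere. At least 10 CGs were present in 93.4% of member windows, 56.0% of all windows and 75.2% of the windows of array genes. The windows of the run ZNF101 to ZNF254 were lower, with a median of 10 (range 8 to 18) over 24 windows. Members that fell in LX2 had a median of 13.5 (8 windows), those that rose 15.0 (4 windows) and those not called 21.0 (172 windows). The windows of members that fell include ZNF101, ZNF431, ZNF493 and ZNF254 of that run, with 18, 14, 10 and 10 CGs. ZNF527 and ZNF567, of another run, had 27 and 18. Over 184 tested members the CG count had a Spearman correlation of 0.20 with the LX2 change and 0.02 with the HepG2 change, given as a description. The CG count was not separated from the run to which a gene belongs.

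The capital motif of the sequences above, CCAATCA searched on both strands, was chosen after these windows had been read. It was present in 24 of 24 windows of the run ZNF101 to ZNF254, in 32 of 174 windows of the other members (18.4%) and in 1987 of 27305 windows of all genes (7.28%). In that run 13 windows held at least 2 matches. Of the 23 windows of the run ZNF565 to ZNF573, 0 held it, although that run also had medians below 0. The shorter CCAAT, contained in the longer motif, was present in 35.7% of all windows. A match describes these letters only. The genes of a run are duplicates of one another, and their windows are not independent.

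More members differed between the untreated lines (54.1%) than between treated and untreated cells of a line. Between the controls, 44 members were higher in HepG2 (21.5%) and 67 higher in LX2 (32.7%), beside 17.7% and 40.5% of all tested genes and 58.1% in either direction. The median HepG2 minus LX2 difference of the members was -0.17, against -0.27 for all tested genes. The balance turned with the scaling: with arrays centred on their medians the members split 62 higher to 49 lower with a median of 0.06 (all genes -0.04), and with quantile normalization 62 to 47 with a median of 0.10 (all genes -0.01). The members lay 0.10 to 0.11 above all genes under each of these scalings.

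A value under 4 is treated here as dim, so a difference against it is also given with each array raised to 4, as a lower bound on the log2 scale, and such differences have no order. ZNF556 had 8.24 and 8.27 in the HepG2 controls and 3.44 and 3.66 in the LX2 controls (fitted difference 4.70, SE 0.14, adjusted p = 6.67e-09, at least 4.25). ZNF114, over 4 in both lines, had 8.32 and 8.48 against 4.62 and 4.53 (difference 3.82, SE 0.18, adjusted p = 9.27e-08). ZNF737, the pseudogene ZNF542P and ZNF563 were dim in LX2 and higher in HepG2 by at least 0.62, 0.79 and 1.60 (fitted 1.99, 1.88 and 1.73). Those genes were under 4 on every LX2 array and entered the test only through HepG2, so their calls are no independent support. All 5 tested members of the run from ZNF554 to ZNF77, to which ZNF556 belongs, were called higher in HepG2, with a median difference of 0.94. CM272 brought ZNF556 in LX2 to 4.10 and 4.19, well below its HepG2 values.

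On the LX2 side ZNF302 had 6.63 and 6.41 in the LX2 controls and 2.29 and 2.82 in the HepG2 controls (fitted difference -3.97, SE 0.28, adjusted p = 1.78e-06, and -2.52 with values under 4 raised to 4). ZNF93, known to repress L1 retrotransposons, had 7.24 and 7.70 against 3.66 and 3.37 (fitted difference -3.95, SE 0.32, adjusted p = 4.42e-06, and -3.47 with the floor). These genes entered the test only through LX2, where they are bright, so their calls are no independent support. ZNF699 (fitted -3.02, -2.81 with the floor) and ZNF320 (-2.62 and -1.85) were likewise dim in HepG2 and entered only through LX2. ZNF175, also called OTK18 and found in macrophages infected with HIV, was over 4 in both lines (difference -2.22). In HepG2 with CM272 these genes were still low: ZNF302 had a mean of 2.43 ± 0.27 and ZNF93 of 3.23 ± 0.83 (SD, n = 2). The 10 genes named for either side were past the test after every single-array removal.

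**Figure D5:**
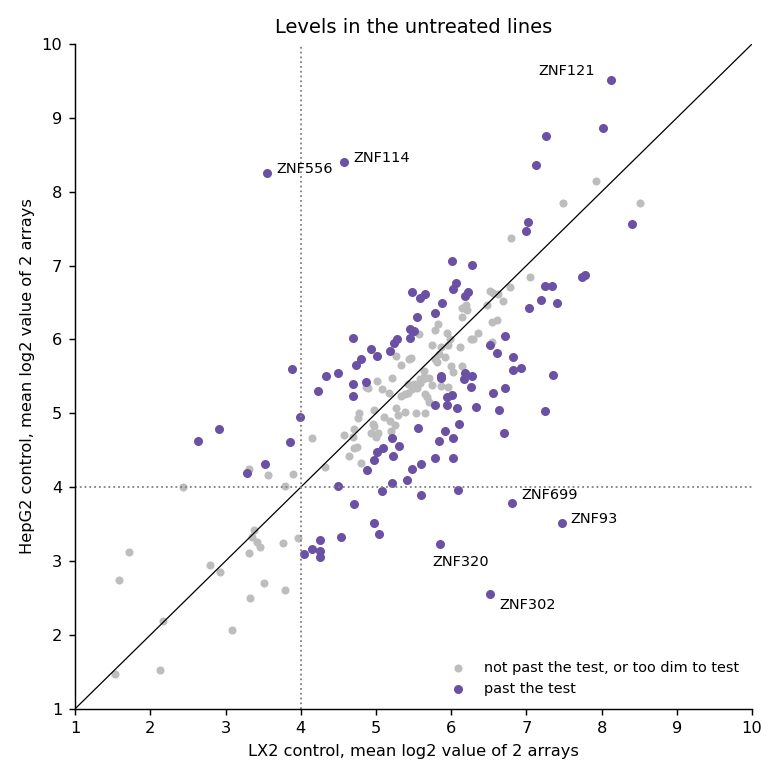
Mean log2 value of the 2 LX2 control arrays (x axis) against that of the 2 HepG2 control arrays (y axis) for the 226 members; purple points are past the test between the lines, grey points are not past it or were too dim to test, the diagonal marks equal values and dotted lines a log2 value of 4. ZNF556 (3.55 against 8.25) and ZNF114 (4.58 against 8.40) lie far above the diagonal, ZNF302 (6.52 against 2.55) and ZNF93 (7.47 against 3.52) far below it.

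Few dim members became bright with CM272. In LX2, 27 of the 226 members (11.9%) were under a log2 value of 4 in both controls, and 2 of these, ZNF155 and ZNF556, were over 4 in both treated arrays (7.41%, beside 5.05% of all symbols that were dim there). In HepG2, 31 members (13.7%) were dim in both controls and 0 were over 4 in both treated arrays (all symbols 2.38%). Of these 31, 12 were over 4 in both LX2 controls, among them ZNF302, ZNF93, ZNF699 and ZNF320, and none of the 12 was over 4 in both HepG2 CM272 arrays. Over all symbols in that state it was 37 of 928, so 0 of 12 is near the background. The reverse state, dim in LX2 and over 4 in HepG2, was found for 6 members, of which ZNF155 and ZNF556 crossed 4 with CM272. Over all symbols 52 of 361 did so. In the other direction, ZNF430 in HepG2 was the 1 member over 4 in both controls and under 4 in both treated arrays. That is 0.546% of the members over 4 in the HepG2 controls, beside 0.674% of all symbols.

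A set of 7 members known for promoter methylation in tumours was looked at, chosen with results of these data known: ZNF154, ZNF132, ZNF671, ZNF471, ZNF382, ZNF677 and ZNF331. None of the 7 was past the test in either line (limma), beside 8.42% of all tested genes in LX2 and 0.00817% in HepG2. For a set of 7, none called is near that background. An unadjusted p under 0.05 was found for 1 in LX2 (higher) and 1 in HepG2 (lower). Over all tested genes this was 10.5% higher in LX2 and 6.70% lower in HepG2. Their changes ran from -0.20 to 0.37 in LX2 and from -0.40 to 0.21 in HepG2. The median of the 7 was -0.09 in both, beside -0.02 for all tested genes in both.

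ZNF274 and ZNF91, repressors with known targets, were not past the test with CM272. ZNF274 recruits SETDB1 to the 3′ ends of zinc finger genes. Its values were 6.27 and 5.84 in the LX2 controls, 6.08 and 6.24 in LX2 CM272, 6.81 and 6.72 in the HepG2 controls and 6.66 and 6.03 in HepG2 CM272. The groups overlapped in LX2 and not in HepG2, with changes of 0.10 (adjusted p = 0.813) and -0.42 (adjusted p = 0.497). Both treated HepG2 arrays lay below both controls for 28.2% of all tested genes. The LX2 sign of ZNF274 turned to -0.11 without LX2 control replicate 2. ZNF274 was higher in the HepG2 controls than in the LX2 controls by 0.71 (SE 0.22, adjusted p = 0.0190). ZNF91, which represses SVA retrotransposons, had 5.50 and 5.59 in the LX2 controls and 4.94 and 5.46 with CM272 (change -0.34, adjusted p = 0.366), and in HepG2 5.61 and 5.07 against 5.23 and 5.11 (change -0.17, adjusted p = 0.824, turning to 0.10 without HepG2 control replicate 1).

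The brightest probe sets of the members were those of ZNF121, ZNF146, ZNF317, ZNF841 and ZNF460. ZNF146, also called OZF, consists of zinc fingers without a KRAB domain, and ZNF317 is a KRAB gene. None of the 5 was past the test with CM272. ZNF121 had 8.15 and 8.09 in the LX2 controls against 9.52 and 9.50 in the HepG2 controls (difference 1.39, adjusted p = 2.35e-05), and ZNF460 had a difference of 1.51 and ZNF146 of 0.84 in the same direction. The dimmest tested were ZNF737, ZNF677 and ZNF471. Brightness of different probe sets is not a measure of relative RNA amount.

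Of 29 genes of the repression pathway listed with the members (the machinery that KRAB zinc finger proteins recruit and the H3K9 and DNA methylation enzymes), 25 were measured and tested; SETDB1 had no measured symbol. In LX2 1 was lower (4.0%, beside 4.63% of all tested genes) and 0 were higher (beside 3.79%), so the share called was not above the background. The median of the 25 was -0.06, beside -0.02 for all tested genes. The gene that fell was CBX3, which encodes the heterochromatin protein HP1 gamma: 8.27 and 8.24 in the controls against 6.93 and 7.54 with CM272 (change -1.02, SE 0.20, adjusted p = 0.0185). TRIM28 had -0.21 (adjusted p = 0.398), EHMT2 0.02 (adjusted p = 0.954), EHMT1 -0.06 and DNMT1 0.24 (adjusted p = 0.323), so the 2 targets of CM272 were not past the test in RNA. EHMT2 turned to -0.05 with centred arrays and EHMT1 to 0.02 with quantile normalization. In HepG2 0 of 25 were called, beside 0.00817% of all tested genes, with EHMT2 at 0.37 (adjusted p = 0.418) and TRIM28 at -0.09.

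Between the untreated lines 15 of the 25 pathway genes differed, 4 higher in HepG2 and 11 higher in LX2. That is 60.0% of them beside 58.1% of all tested genes, a share near the background. ATRX, a chromatin remodeller at H3K9-methylated repeats, had 7.40 and 7.17 in HepG2 and 2.50 and 2.49 in LX2 (difference 4.79, SE 0.17, adjusted p = 1.72e-08, and at least 3.29 with values under 4 raised to 4). It entered the test only through HepG2, where it is bright, so its call is no independent support. ATF7IP, the partner of SETDB1, had a HepG2 minus LX2 difference of -2.94, CBX5 of -2.15, CBX1 of -1.91 and DNMT1 of -1.11. EHMT2 was also higher in LX2 (-0.47, limma adjusted p = 0.0277). So were RESF1 (-1.36), PPHLN1 (-1.24), SUV39H1 (-1.05), UHRF1 (-0.92), KDM4A (-0.79) and DAXX (-0.71). Besides ATRX, the genes higher in HepG2 were KDM4C (0.77), DNMT3B (0.61) and DNMT3A (0.53). TRIM28 was not past the test (0.13, adjusted p = 0.449).

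The labels of the lines were checked with marker lists. All 10 measured hepatocyte markers were higher in HepG2, with a median of 12.19 (lowest 7.31) in its controls against 3.73 in LX2. Of 6 measured stellate markers 4 were over a log2 value of 4 in LX2 and higher there than in HepG2 (THY1, TAGLN, LOX and VIM, the last at 10.19 against 3.67), while LUM and DCN were under 4 in both lines. With CM272 in LX2 the stellate marker LOX fell from 9.18 to 8.17 (adjusted p = 0.00638) and the leukocyte marker CD14 rose from 5.21 to 6.33 (adjusted p = 0.0102); CD68, the other of the 2 measured leukocyte markers, was at 10.19 in both. The 4 measured endothelial markers lay between 2.39 and 5.09 in the LX2 controls. The part of other cell types in the LX2 changes was not tested.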

How the data were processed

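Total RNA (300 ng per sample) of 8 samples was labelled as sense cDNA and hybridised to Affymetrix arrays, 1 array per sample. The deposited values are log2 expression values, to which the authors had applied RMA (background correction, normalization between arrays, 1 value per probe set) according to the submitters' processing notes; the software version and the build of the array design are not given in the sources used here. RMA gives arrays like distributions, so a change shared by most genes would be partly removed, and it compresses changes of dim genes. The medians of the arrays were 4.19 to 4.54. With 2 arrays per group, precision is low.

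Among the 48416 probe sets, 16098 had 1 gene symbol (0 had several and 32318 none), and all 16098 matched a gene record. Where several probe sets shared a symbol, the one brightest on average was used, giving 14884 genes; 12239 exceeded log2 4 in both replicates of some group and were tested (2645 were too dim). Genes were tested in 1 fit of limma 3.58.1 (R 4.3.3) with a mean per group over all 8 arrays and default moderation (4 residual and 5.47 prior degrees of freedom), two-sided, with Benjamini-Hochberg adjustment over the 12239 genes and a threshold of 0.05. For 2 arrays against 2 the smallest exact permutation p is 0.333, so no such test was used. The fit was tested on simulated data. Replicate numbers did not pair the samples: deviations of same-numbered arrays correlated between -0.05 and 0.08 over the group pairs.

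The members and the gene lists were chosen with earlier results of these data known. The genes named are the 10 largest called changes each way per comparison (5 each way between the lines), the 3 largest each way where fewer than 3 were called, the 5 brightest and 3 dimmest tested members, ZNF274 and ZNF91, and of the pathway list EHMT2, EHMT1, DNMT1, TRIM28 and SETDB1 and genes past the threshold; the 7 members methylated in tumours, ZNF98 and ZNF14 were named after their values were seen. Promoters came from RefSeq (GRCh38.p14), the first listed per gene. Alternatives were other filters (none, log2 6), normalizations, a replicate block, array weights, an intensity trend, each line alone, the mean of all probe sets and each array left out; a floor of log2 4 and the sign checks were added after the data were seen. Figures were drawn with matplotlib 3.10.9.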

Additional observations from a re-analysis of the deposited data

Results flagged for a closer look

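The change of ZNF493 differed between the lines by the test of the difference itself: the HepG2 change minus the LX2 change was 1.13 (SE 0.22, limma adjusted p = 0.0439), from -1.23 in LX2 and -0.10 in HepG2. Both LX2 CM272 arrays were below both LX2 controls. The difference stayed past the threshold with the intensity trend. It also did with the mean of all probe sets, which can alter only the 5 members with several probe sets. With no filter, quantile normalization, centred arrays, the replicate block and array weights it was not past the threshold. In LX2, 28.6% of all tested genes had both treated arrays below both controls. What sets the lines apart was not tested.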

How the results depend on the processing

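With 2 arrays per group the adjusted p of most LX2 calls lay near the threshold, and the counts moved with the settings; the cause was not tested. Members higher in LX2 (5 in the fit as reported) numbered 3 with no filter, with a filter at log2 6 and with the replicate block, 2 with quantile normalization and with centred arrays, 0 with array weights and with each line fitted alone, and 0 to 7 without 1 array. Members lower in LX2 (9) numbered 3 with array weights, 4 with each line alone and 0 to 32 without 1 array. The replicate block gave 8, of which 7 were among the 9, and it changed no HepG2 call. The LX2 median was -0.21 at the filter of 6, -0.20 with centred arrays and -0.16 to -0.08 without 1 array. For all tested genes it was -0.09, -0.09 and -0.04 to 0.01 in the same order.

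For the difference of effects, 0 members were higher with no filter, quantile normalization, centred arrays, the replicate block or array weights, 2 at the filter of 6 and 0 to 9 without 1 array; lower were 1 at the filter of 6 and 0 to 3 without 1 array, and the median ran from 0.01 to 0.09. Between the untreated lines, 25 were higher and 35 lower at the filter of 6, where 83 members were tested, and 28 to 49 and 50 to 78 without 1 array. The median was 0.10 with quantile normalization and 0.06 with centred arrays. HepG2 counts were 0 in every setting run, and the HepG2 median ran from -0.11 to -0.04 without 1 array.

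Some changes not past the test turned sign. Of the HepG2 changes of the 14 genes called in LX2, 4 did so on leaving out 1 array: ZNF878 (-0.27 to 0.12), ZNF443 (-0.74 to 0.02), ZNF546 (-0.09 to 0.22) and ZNF155 (-0.30 to 0.02), and ZNF14 in LX2 did too (-0.19 to 0.47). Others were ZNF274 in LX2 (-0.11 to 0.32 without 1 array), ZNF91 in HepG2 (-0.44 to 0.10 without 1 array), EHMT2 in LX2 (-0.05 with centred arrays, -0.12 to 0.16 without 1 array), EHMT1 in LX2 (0.02 with quantile normalization, and -0.21 to 0.09 without 1 array) and DNMT1 in HepG2 (0.03 with quantile normalization, -0.13 to 0.02 without 1 array). Dim members are limited by signal over background, and 21 of 226 were not tested.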
